A study of Mus musculus with 6 samples.

Results

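The genes described here encode the machinery that fills, docks, fuses and resets synaptic vesicles, measured in muscle sensory neurons of the newborn mouse. The set was a fixed list of 49 gene symbols, covering SNARE proteins, priming factors, complexins, active zone scaffolds, vesicle membrane proteins, Rab3 GTPases, SNARE disassembly proteins and vesicular glutamate transporters. Each symbol was matched to the row of highest mean in a table of 36814 genes, and all 49 were found. Of these, 44 passed a filter of a mean of at least 1 RPKM (reads scaled by gene length and by library total) over the 6 libraries, among 10828 genes tested in all. The other 5 were Unc13b, Unc13c, Cplx3, Synpr and Slc17a8.

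Proprioceptors are the sensory neurons that report muscle length and force. The study profiled 3 pools supplying the tibialis anterior (TA), an ankle flexor, and 3 supplying the gastrocnemius (GS), an ankle extensor, to ask how the 2 populations differ molecularly. In both groups the mice carried the Pv::YFP reporter, which marks parvalbumin neurons, the tracer ctb-555 was put into the muscle on postnatal day 0, and traced neurons were picked by hand on postnatal day 1. Each pool held 25 to 30 neurons, so every value is an average over few amplified cells, and the labels do not say whether the pools came from separate animals. P-values therefore measure only the spread between these pools.

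Transmitter release begins when a vesicle SNARE, a synaptobrevin, zips together with the plasma membrane SNAREs SNAP-25 and syntaxin. Munc13 proteins prime this step, complexins and tomosyns regulate it, RIM, ELKS, liprin-alpha, Bassoon and Piccolo position vesicles at the active zone, and NSF with its attachment proteins takes the spent SNARE complexes apart. In proprioceptors the central terminals release glutamate onto motor neurons, and vesicles are loaded by vesicular glutamate transporters, of which Slc17a7 (VGLUT1) is the one used to label these terminals in the spinal cord.

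Most of these proteins come from families of closely related genes, and the choice among paralogs is one of the things the table can show. It is a gene table, so splice forms of 1 gene were not analysed here. Whether reads of paralogs can be told apart depends on how much coding sequence they share, so coding sequences of all 49 genes were taken from the GENCODE M21 annotation and compared within families. Over 45 pairs of paralogs, aligned coding identity ran from 57.8% to 79.6%. The longest exact run shared by a pair had a median of 20 bases, and the longest of all, between Rab3b and Rab3d, was 33 bases. Read length is not stated by the labels. The stretches printed here, each 90 bases of coding exon, are from 4 pairs whose balance is described later, written 5′ to 3′ with the bases that differ from the partner in capitals. Vamp1 (coding bases 91 to 180 from the start codon) and Vamp2 (85 to 174) differ at 11 of 90 positions. Sv2b (893 to 982) and Sv2c (1022 to 1111) differ at 15, Slc17a6 (234 to 323) and Slc17a7 (210 to 299) at 15, and Napb and Napa (both 119 to 208) at 16.
Vamp1: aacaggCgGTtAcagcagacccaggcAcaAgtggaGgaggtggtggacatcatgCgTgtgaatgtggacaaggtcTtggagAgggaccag
Vamp2: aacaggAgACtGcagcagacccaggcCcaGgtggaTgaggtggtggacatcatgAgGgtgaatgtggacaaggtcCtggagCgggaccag
Sv2b: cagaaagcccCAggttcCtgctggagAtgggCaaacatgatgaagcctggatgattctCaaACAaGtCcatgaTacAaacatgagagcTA
Sv2c: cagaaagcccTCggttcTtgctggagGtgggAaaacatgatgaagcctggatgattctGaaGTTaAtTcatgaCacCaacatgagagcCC
Slc17a6: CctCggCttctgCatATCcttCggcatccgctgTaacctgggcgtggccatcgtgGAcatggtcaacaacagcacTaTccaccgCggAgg
Slc17a7: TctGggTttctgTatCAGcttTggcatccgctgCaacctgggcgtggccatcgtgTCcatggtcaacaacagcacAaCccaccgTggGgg
Napb: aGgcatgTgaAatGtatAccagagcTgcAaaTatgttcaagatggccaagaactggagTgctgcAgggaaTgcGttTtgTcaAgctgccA
Napa: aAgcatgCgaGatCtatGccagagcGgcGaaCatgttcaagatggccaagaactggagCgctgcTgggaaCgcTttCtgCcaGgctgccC
Each stretch was placed around the longest identical run of its pair, and the differences lay on either side of that run. Over the whole coding sequences, the longest identical run within these pairs was 18 bases in Vamp1 and Vamp2, 26 in Sv2b and Sv2c, 21 in Slc17a6 and Slc17a7 and 26 in Napb and Napa.

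Libraries held between 7038296 and 21125960 net reads, and the identity of the neurons was checked on markers. All 6 proprioceptor markers were above 0 in every library, with summed levels of 600.1 to 687 RPKM in the TA pools and 716 to 728 RPKM in the GS pools. Etv1 and Nefh made up most of these sums, and other markers differed in direction. Pvalb (parvalbumin) averaged 70.1 ± 22.8 RPKM in TA libraries and 15.3 ± 14.2 RPKM in GS libraries without overlap (limma adjusted p = 0.168), and Spp1 was higher in GS, at 5.36 ± 2.25 and 56.5 ± 16.9 RPKM (limma adjusted p = 0.0150). Of the 6 muscle markers, all were above 0 in TA replicate 3, where they summed to 256 RPKM, against 0.0415 to 5.12 RPKM in the other libraries. Blood and immune markers summed to 23.9 RPKM in that library and to at most 4.88 RPKM elsewhere, while C1qa was listed at 0 in every library. Glial markers summed to 33.5 to 86.4 RPKM in the TA pools and 60.8 to 110.0 RPKM in the GS pools. Nociceptor markers summed to 38.9 to 79.7 RPKM in the TA pools and 27.8 to 168 RPKM in the GS pools, with Mrgprd listed at 0 in every library. Mechanoreceptor markers summed to at most 8.78 RPKM and motor neuron markers to at most 7.46 RPKM, with Chat and Mnx1 listed at 0 throughout. The part of these other cells in the results below was not tested. Some genes had values below 0 in the deposited table, none of them among the 49, and because genes of the mitochondrial chromosome are all listed at 0, a 0 is described here only as such.

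Most genes of the set were above 0, as were most genes tested. Of the 49 genes, 46 to 48 were above 0 in each library and 40 to 45 were at 1 RPKM or more. Over all genes tested, which had passed the filter on the mean, 94.1% to 99.5% were above 0 in a library. The count above 0 therefore does not set these genes apart. The 44 tested genes had a median mean level of 15.8 RPKM, against 4.76 RPKM for all genes tested. The summed level of all 49 was 3346, 2682 and 3003 RPKM in TA replicates 1, 2 and 3 and 2877, 2868 and 2690 RPKM in GS replicates 1, 2 and 3. Between 55.8% and 69.8% of that sum came from the 4 highest genes of a library. Snap25 and Cplx1 were the highest pair in all 6 libraries.

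**Figure D1:**
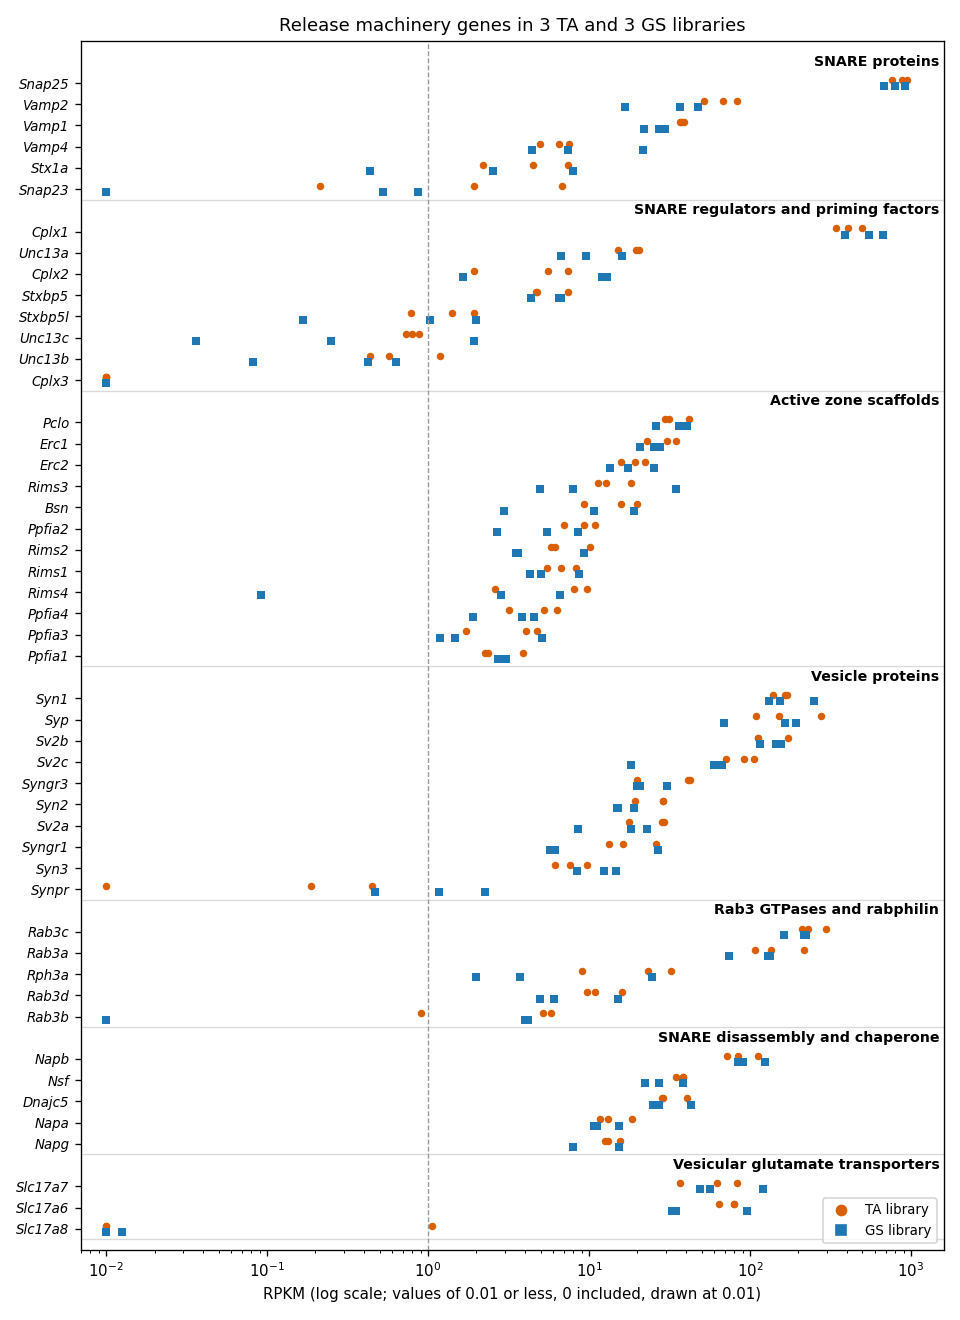
Level of each of the 49 genes in the 3 TA libraries (orange circles) and 3 GS libraries (blue squares), in RPKM on a log axis, grouped by role; values of 0.01 or less are drawn at 0.01 and the dashed line marks 1 RPKM. Snap25 and Cplx1 lie furthest right in their groups, and for most genes the symbols of the 2 groups intermingle.

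No gene of the set passed the test of a difference between TA and GS. With limma on log2(RPKM + 1) and Benjamini-Hochberg adjustment over all 10828 genes, 0 of the 44 tested had an adjusted p under 0.05 in either direction, and the smallest adjusted p was 0.409, for Vamp2. Over all genes, 0.175% were called higher in TA and 0.129% higher in GS. Before adjustment 2 genes of the set, Vamp2 and Sv2c, were under 0.05 towards TA, beside 8.3% of all genes, and 0 were towards GS, beside 2.12%. All 3 TA values lay above all 3 GS values for 4 genes, Vamp1, Vamp2, Syn2 and Sv2c, which is 4 of 44 beside 13.1% of all genes, and no tested gene of the set had all GS values above TA, beside 3.48%. These shares are close to or under the background. In pooled RNA, fewer cells of a type and less RNA per cell cannot be told apart.

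Fold changes leaned towards TA in the set and in the table as a whole. The log2 fold change, TA minus GS, was above 0 for 34 of 44 genes and for 66% of all genes tested. Its median was 0.39 for the set and 0.24 for all genes, and 28 of the 44 lay above the latter, as do 50% of all genes by construction. When each library was centred on its median level, the median was 0.19 for the set and 0.03 for all genes, and 28 of 44 were above 0. The median 95% interval of a gene of the set reached 0.91 to either side on the log2 scale, so changes smaller than that were mostly not resolvable with 3 pools a group. These intervals are not adjusted for the number of genes. Larger changes also failed the adjusted test, such as 1.08 for Vamp2 and 1.50 for Rph3a. The libraries that held the extremes differed. GS replicate 1 had the lowest value for 17 of the 44 genes, GS replicate 2 for 11 and GS replicate 3 for 10, whereas TA replicate 3 had the highest for 15. As shares of the set these were 38.6%, 25%, 22.7% and 34.1%. Over all genes tested, GS replicates 1, 2 and 3 were lowest for 32.1%, 28.4% and 14.7%, and TA replicate 3 was highest for 23.0%. None of the 49 genes was in the authors' deposited lists of genes higher in GS or TA, which hold 0.907% and 1.07% of the table and only ratios of at least 5.06 and 5.08.

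**Figure D2:**
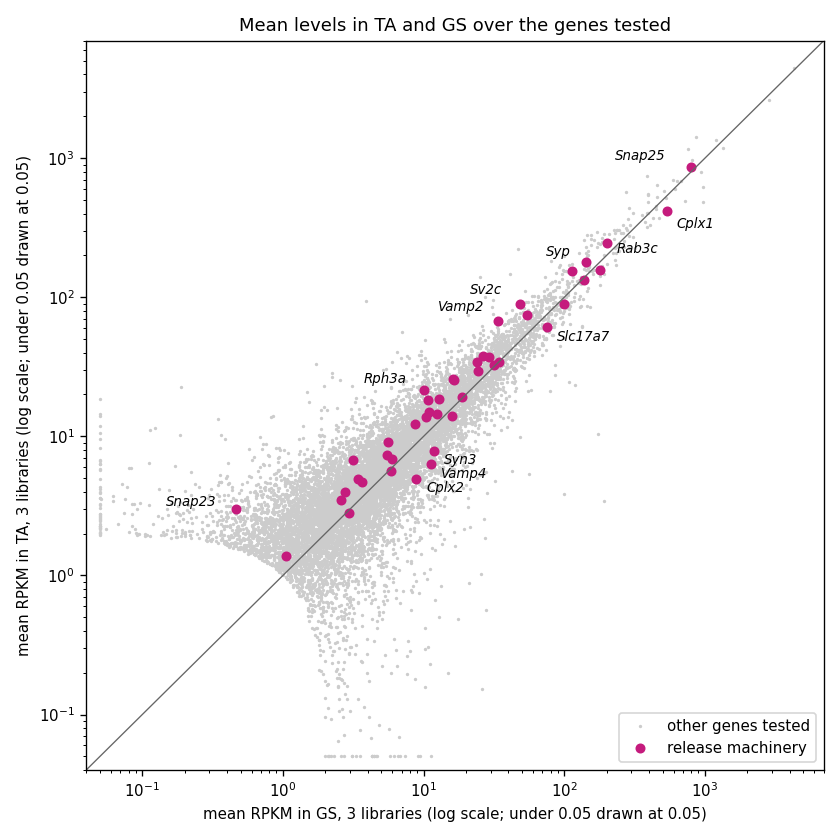
Mean RPKM in the TA pools (vertical) against GS (horizontal) for the 10828 genes tested, both on log axes and each a mean of 3 libraries; magenta points are the 44 tested genes of the release machinery and grey points all other genes. The magenta points follow the line of equality, with Vamp2, Sv2c, Rph3a and Snap23 above it and Cplx2, Vamp4 and Syn3 below it.

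**Figure D3:**
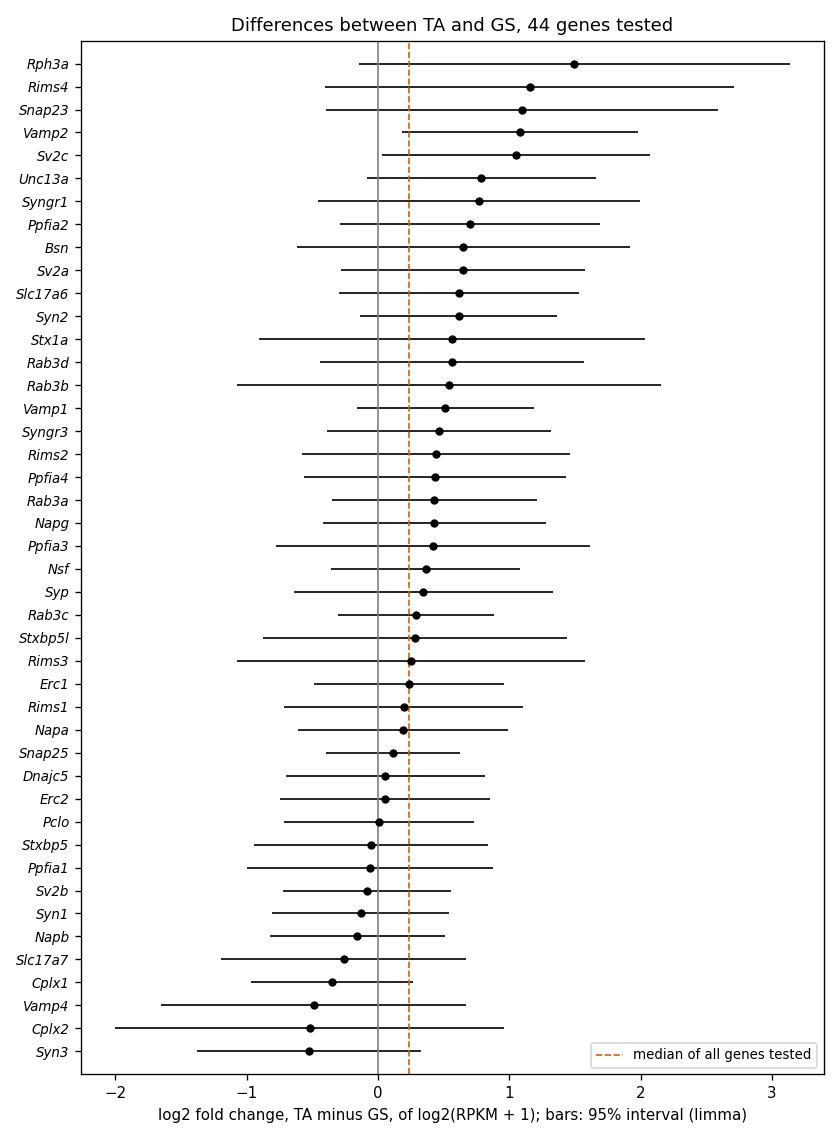
Log2 fold change of each of the 44 tested genes, TA minus GS on log2(RPKM + 1), with 95% intervals from limma; the grey line marks 0 and the dashed line the median of all genes tested, 0.24. Only the intervals of Vamp2 and Sv2c leave out 0 before adjustment.

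Among the SNARE proteins, Snap25, the plasma membrane partner that supplies a pair of helices to the complex, was the most abundant gene of the set and ranked 9 among all genes tested. In all lists of 3 values below, replicates stand in the order 1, 2, 3. Snap25 (chr2:136539189-136608164, mm9) was at 946, 761 and 881 RPKM in the TA pools and 921, 679 and 800.2 RPKM in the GS pools. The groups overlapped, with means of 862 ± 93.9 and 800.1 ± 121 RPKM (SD, n = 3 each) and a log2 fold change of 0.11 ± 0.23 (SE, 95% interval -0.40 to 0.62, limma adjusted p = 0.890). Its direction turned under median centring, to -0.09. Its broadly expressed relative Snap23 was at 0.214, 6.79 and 1.94 RPKM in the TA pools and 0, 0.862 and 0.524 RPKM in the GS pools. TA replicate 2 alone held the high value, and the log2 fold change of 1.10 ± 0.67 had an adjusted p of 0.614 in limma.

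Among the vesicle SNAREs, Vamp1 and Vamp2 had groups that did not overlap and Vamp4 had groups that did. Vamp2 (synaptobrevin 2, chr11:68901992-68922498, mm9) was at 82.8, 52.2 and 67.8 RPKM in the TA pools and 16.6, 47.4 and 36.8 RPKM in the GS pools. Every TA pool was above every GS pool, though TA replicate 2 and GS replicate 2 nearly met and GS replicate 1 was far below the rest. Means were 67.6 ± 15.3 and 33.6 ± 15.6 RPKM (SD, n = 3 each), a ratio of 2.01, and the log2 fold change was 1.08 ± 0.41 (SE, 95% interval 0.18 to 1.98, limma adjusted p = 0.409). Under 13 alternative settings its log2 fold change ran from 0.66 to 1.38. The lone overlapping gene on the same strand, the clock gene Per1, was at 2.82 RPKM or less in every library.

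Vamp1 (synaptobrevin 1, chr6:125165569-125194561, mm9), the form known from spinal cord and neuromuscular junction, was at 36.6, 39.2 and 37.1 RPKM in the TA pools and 27.2, 29.5 and 22.1 RPKM in the GS pools. Both groups were tight and did not overlap, at 37.6 ± 1.36 and 26.3 ± 3.79 RPKM (SD, n = 3 each). Its log2 fold change was 0.51 ± 0.30 (SE, 95% interval -0.16 to 1.19, limma adjusted p = 0.605). Vamp4, which serves endosomal traffic and slower forms of release, was at 4.95, 6.47 and 7.51 RPKM in the TA pools and 7.43, 21.8 and 4.45 RPKM in the GS pools, with GS replicate 2 apart from the rest. Stx1a, a plasma membrane syntaxin, was low and uneven, at 7.42, 4.501 and 2.18 RPKM in the TA pools and 2.52, 0.437 and 7.99 RPKM in the GS pools. The highest Stx1a library was 18.3 times the lowest, and the groups overlapped throughout.

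The priming factors and SNARE regulators were dominated by 1 complexin. Cplx1, which clamps and then promotes fusion by binding the assembled SNAREs, was at 496, 342 and 408 RPKM in the TA pools and 674, 546 and 390.3 RPKM in the GS pools, and ranked 22 among all genes tested. GS replicates 1 and 2 were above every TA pool while GS replicate 3 lay inside the TA range. Means were 415 ± 77.3 and 537 ± 142 RPKM (SD, n = 3 each), with a log2 fold change of -0.35 ± 0.28 (SE, 95% interval -0.97 to 0.26, limma adjusted p = 0.698). Cplx2 was at 7.45, 1.94 and 5.54 RPKM in the TA pools and 11.97, 13.0 and 1.65 RPKM in the GS pools, so GS replicate 3 was the lowest library and the other GS pools were the highest. Cplx3, known from retinal ribbon synapses, was listed at 0 in all 6 libraries.

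Unc13a, the main Munc13 priming factor of brain synapses, was at 20.3, 15.2 and 19.6 RPKM in the TA pools and 6.74, 15.97 and 9.53 RPKM in the GS pools. GS replicate 2 fell within the TA range and the other GS pools lay below it, at means of 18.4 ± 2.79 and 10.7 ± 4.73 RPKM (SD, n = 3 each). The log2 fold change was 0.79 ± 0.39 (SE, 95% interval -0.08 to 1.66, limma adjusted p = 0.532). Unc13b ran from 0.0823 to 1.19 RPKM and Unc13c from 0.0362 to 1.93 RPKM, both under the filter. The tomosyns, which compete with synaptobrevin for the SNARE complex, were also low. Stxbp5 was at 4.73, 4.69 and 7.41 RPKM in the TA pools and 4.33, 6.66 and 6.51 RPKM in the GS pools, and Stxbp5l ran from 0.167 to 1.98 RPKM, with overlapping groups for both.

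Active zone scaffolds made up 12 genes at low to moderate levels. Of the 12, 11 had a log2 fold change above 0, beside 66% of all genes, at a median of 0.34 beside 0.24 for all genes. Only 8 of the 12 lay above that median of all genes. None passed the test, and Rims1, Erc2 and Pclo turned below 0 under median centring. Pclo (Piccolo), one of the giant scaffolds that hold vesicles near the membrane, was the highest of them at 31.6, 29.7 and 41.6 RPKM in the TA pools and 40.8, 26.1 and 36.1 RPKM in the GS pools. Its means were nearly equal, at 34.3 ± 6.40 and 34.3 ± 7.46 RPKM (SD, n = 3 each), and its log2 fold change of 0.01 ± 0.33 had a 95% interval of -0.71 to 0.73 (limma adjusted p = 0.994). Bsn (Bassoon), its structural relative, varied more, at 15.7, 9.34 and 19.9 RPKM in the TA pools and 19.1, 2.95 and 10.8 RPKM in the GS pools, with GS replicate 2 lowest. The ELKS genes Erc1 and Erc2, which bind RIM and Bassoon, were at similar heights. Erc1 was at 34.5, 23.0 and 30.6 RPKM in the TA pools and 25.3, 20.6 and 27.7 RPKM in the GS pools, and Erc2 ran from 13.5 to 25.3 RPKM.

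The long RIM proteins, those of Rims1 and Rims2, tether calcium channels and Rab3 at the release site. Rims3, a short form of the family, was at 12.7, 18.2 and 11.3 RPKM in the TA pools and 4.93, 34.9 and 7.98 RPKM in the GS pools. GS pools held both its highest and its lowest values, and the mean of GS rested on GS replicate 2. Rims4 was at 2.61, 8.02 and 9.70 RPKM in the TA pools and 6.56, 0.0919 and 2.83 RPKM in the GS pools, a log2 fold change of 1.15 ± 0.70 (SE, limma adjusted p = 0.611) with GS replicate 2 close to 0. The long forms Rims1 and Rims2 ran from 4.29 to 8.69 RPKM and from 3.53 to 10.2 RPKM. Among liprins, scaffolds that gather active zone proteins during assembly, Ppfia2 was highest at 7.002, 9.28 and 10.9 RPKM in the TA pools and 5.49, 2.70 and 8.51 RPKM in the GS pools. Its groups overlapped by 1 library, GS replicate 3, and its log2 fold change of 0.70 ± 0.45 had an adjusted p of 0.629 in limma. Ppfia1, Ppfia3 and Ppfia4 ran from 2.24 to 3.88, from 1.19 to 5.10 and from 1.91 to 6.36 RPKM.

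Vesicle membrane proteins included Sv2c, the other gene at an unadjusted p under 0.05. SV2 proteins are vesicle glycoproteins that regulate release and serve as entry receptors for botulinum toxin. Sv2c (chr13:96729398-96902532, mm9) was at 92.0, 106 and 70.6 RPKM in the TA pools and 18.2, 60.0 and 66.7 RPKM in the GS pools. All TA pools were higher than all GS pools, but TA replicate 3 exceeded GS replicate 3 only narrowly. Means were 89.4 ± 17.6 and 48.3 ± 26.3 RPKM (SD, n = 3 each), a ratio of 1.85, with a log2 fold change of 1.05 ± 0.46 (SE, 95% interval 0.03 to 2.07, limma adjusted p = 0.462). Sv2b, the more abundant relative, was at 112, 113 and 172 RPKM in the TA pools and 155, 146 and 115 RPKM in the GS pools. Here the groups overlapped fully, at a log2 fold change of -0.08 ± 0.29 (SE, limma adjusted p = 0.940). Sv2a, the form found at most brain synapses, was at 28.6, 17.8 and 29.3 RPKM in the TA pools and 8.57, 18.1 and 22.9 RPKM in the GS pools, with GS replicate 1 lowest and the others overlapping.

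Both Vamp2 and Sv2c were lowest in GS replicate 1. Without that library the log2 fold change was 0.66 for Vamp2 and 0.47 for Sv2c, neither was at an unadjusted p under 0.05, and the genes of the set that were became Rims4 and Rph3a. Leaving out TA replicate 3, the library with muscle markers, gave log2 fold changes of 1.07 for Vamp2 and 1.21 for Sv2c. With all libraries they were 1.08 and 1.05. Without TA replicate 3 no gene of the set reached an unadjusted p under 0.05. Without TA replicate 1, Snap23 alone did, and without TA replicate 2, Vamp2 and Rph3a did. Without GS replicate 2 there were 6 such genes, all towards TA: Rims3, Slc17a6, Sv2c, Syngr1, Unc13a and Vamp2. Without GS replicate 3 there were Rab3d, Sv2c and Vamp2 towards TA and Cplx2 towards GS. Over all genes tested, the table leaned towards TA in each of these runs. Without GS replicate 1, 813 of 10920 genes were under 0.05 towards TA and 292 towards GS. The counts were 945 and 219 of 10793 without GS replicate 2, and 1198 and 340 of 10856 without GS replicate 3. They were 473 and 146 of 10704 without TA replicate 1, and 660 and 136 of 10800 without TA replicate 2. Without TA replicate 3 they were 585 and 160 of 10630. The count of genes of the set called at an adjusted p under 0.05 was 0 whichever of the 6 libraries was left out.

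Synapsins coat the vesicle and tie it to the reserve pool. Syn1 was at 170.1, 164 and 139 RPKM in the TA pools and 251, 154 and 131 RPKM in the GS pools. GS replicate 1 was highest and GS replicate 3 lowest, so the groups overlapped at 158 ± 16.8 and 179 ± 63.6 RPKM (SD, n = 3 each, limma adjusted p = 0.905). Its log2 fold change was -0.13, and 0.14 without GS replicate 1. Syn2 was at 29.0, 19.3 and 29.0 RPKM in the TA pools and 15.0, 18.9 and 14.8 RPKM in the GS pools. Its groups did not overlap, though TA replicate 2 and GS replicate 2 were almost equal, and its log2 fold change was 0.62 ± 0.34 (SE, 95% interval -0.13 to 1.37, limma adjusted p = 0.576). Syn3 leaned the other way, at 6.16, 7.60 and 9.77 RPKM in the TA pools and 14.6, 12.4 and 8.43 RPKM in the GS pools, with only TA replicate 3 above a GS pool (log2 fold change -0.53 ± 0.38, limma adjusted p = 0.667). Timp3 lies within the span of Syn3 on the opposite strand at 27.1 to 38.7 RPKM, and the labels do not say if counting was stranded, so reads of these 2 genes may not be told apart.

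Syp (synaptophysin), a major tetraspan protein of the vesicle membrane, was at 275, 151 and 109 RPKM in the TA pools and 68.8, 164 and 194 RPKM in the GS pools. TA replicate 1 was highest and GS replicate 1 lowest, 4.002 times apart, and the other 4 pools were mixed. Means were 178 ± 86.6 and 142 ± 65.3 RPKM (SD, n = 3 each, log2 fold change 0.35 ± 0.45, limma adjusted p = 0.819). The direction turned without GS replicate 1, to -0.11, and without TA replicate 1, to -0.02. An overlapping gene on the opposite strand, Gm14703, was at 115, 56.9 and 31.4 RPKM in the TA pools and 23.0, 70.7 and 83.0 RPKM in the GS pools, the same order of libraries as Syp, so the level of Syp is uncertain in the same way. Synpr (synaptoporin) was nearly unread, at 0.188, 0.00906 and 0.449 RPKM in the TA pools and 2.27, 0.465 and 1.17 RPKM in the GS pools. Its GS values were all above its TA values on 710 net reads in total, and it entered no test. The synaptogyrins, smaller tetraspan relatives, were moderate. Syngr3 was at 41.1, 19.9 and 42.1 RPKM in the TA pools and 20.8, 19.9 and 30.7 RPKM in the GS pools, and Syngr1 at 26.0, 13.3 and 16.2 RPKM in the TA pools and 5.74, 27.0 and 6.12 RPKM in the GS pools. For Syngr1 a single GS pool matched the highest TA pool while the other GS pools lay under all TA pools (log2 fold change 0.77 ± 0.55, limma adjusted p = 0.665).

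**Figure D4:**
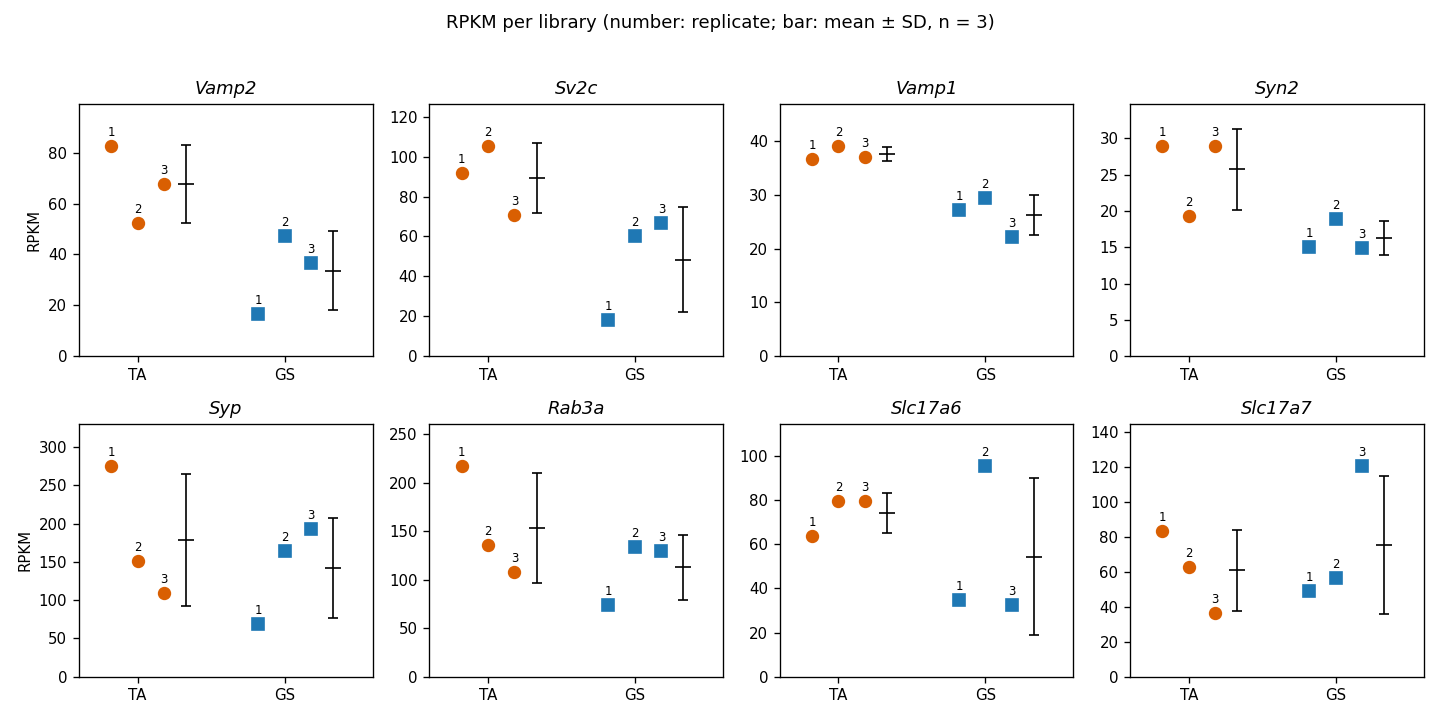
RPKM of 8 genes in each TA (orange circles) and GS (blue squares) library, numbered by replicate, with the mean and SD of 3 libraries beside them. For Vamp2, Sv2c, Vamp1 and Syn2 the TA points lie above the GS points, and for Syp, Rab3a, Slc17a6 and Slc17a7 the groups overlap.

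Rab3 GTPases ride on vesicles and bind RIM, and all 4, with their effector Rph3a (rabphilin), had log2 fold changes above 0. Of all genes tested, 66% did. The direction was the same for each under median centring and quantile normalization, but Rab3b turned to -0.24 in 1 of its 12 alternatives. None passed the test, and the median of the 5 was 0.54, beside 0.24 for all genes. Rab3c was the highest, at 210.4, 229 and 296 RPKM in the TA pools and 162, 222 and 216 RPKM in the GS pools, with the group means 245 ± 44.9 and 200.2 ± 33.4 RPKM (SD, n = 3 each) within overlapping ranges. Its log2 fold change was 0.29 ± 0.27 (SE, 95% interval -0.31 to 0.89, limma adjusted p = 0.747). Rab3a, the main form at brain synapses, was at 217, 136 and 107 RPKM in the TA pools and 74.1, 134 and 129.9 RPKM in the GS pools. Like Syp, Vamp2, Unc13a, Ppfia4 and Rab3d, it was highest in TA replicate 1 and lowest in GS replicate 1. Mpv17l2 overlaps Rab3a on the opposite strand at 6.03 to 45.1 RPKM. Rab3b was at 0 to 5.84 RPKM and Rab3d at 4.96 to 15.97 RPKM. Rph3a had the largest log2 fold change of the set, at 23.4, 9.04 and 32.1 RPKM in the TA pools and 24.6, 3.71 and 1.99 RPKM in the GS pools. A GS pool, replicate 1, exceeded 2 of the TA pools, and the log2 fold change of 1.50 ± 0.74 had a 95% interval of -0.15 to 3.14 (limma adjusted p = 0.527). Without GS replicate 1, its adjusted p was 0.192, the lowest that any gene of the set reached under any setting.

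Genes that recycle SNAREs and refold vesicle proteins varied little between pools. Napb (beta-SNAP), the brain form of the NSF attachment protein, was at 84.5, 71.7 and 112 RPKM in the TA pools and 83.8, 124 and 90.3 RPKM in the GS pools. The groups overlapped, at a log2 fold change of -0.16 ± 0.30 (SE, limma adjusted p = 0.886). Napa, the general form, was at 13.1, 11.7 and 18.5 RPKM in the TA pools and 15.5, 11.2 and 10.7 RPKM in the GS pools, and Napg at 13.2, 12.6 and 15.6 RPKM in the TA pools and 7.97, 15.4 and 7.95 RPKM in the GS pools. Nsf, the ATPase itself, ran from 22.2 to 38.5 RPKM and Dnajc5 (CSP-alpha), a chaperone of SNAP-25 on the vesicle, from 25.0 to 43.0 RPKM. Both were within 1.73 times from lowest to highest library.

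The vesicular glutamate transporters were Slc17a7 (VGLUT1) and Slc17a6 (VGLUT2). Slc17a6 was at 63.8, 79.7 and 79.5 RPKM in the TA pools and 34.8, 95.6 and 32.7 RPKM in the GS pools. TA pools were alike, and GS replicate 2 was above all of them while the other GS pools were below (log2 fold change 0.62 ± 0.41, SE, 95% interval -0.30 to 1.53, limma adjusted p = 0.643). Slc17a7 was at 83.2, 62.7 and 36.7 RPKM in the TA pools and 48.9, 56.3 and 121 RPKM in the GS pools. Its extremes were TA replicate 3 and GS replicate 3 (log2 fold change -0.26 ± 0.42, SE, 95% interval -1.19 to 0.67, limma adjusted p = 0.858). Without either of those libraries the log2 fold change turned, to 0.06 and 0.13. Slc17a8 (VGLUT3), the transporter of some low-threshold sensory neurons and hair cells, had 77 net reads over all libraries, 76 of them in TA replicate 1.

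Within families, a single paralog often led. Shares of the summed RPKM of 16 families were computed per library, and 9 families had the same leading member in all 6 libraries. The most one-sided were SNAP-25, synaptophysin and complexin, in which the leader held at least 90% in every library. Snap25 held 99.6 ± 0.452% in TA and 99.9 ± 0.0634% in GS (SD, n = 3 each), Syp 99.8 ± 0.218% and 98.6 ± 1.600%, and Cplx1 98.9 ± 0.493% and 98.5 ± 0.974%. Unc13a followed at 92.3 ± 1.30% and 91.1 ± 2.28% of Munc13, and Syn1 at 82.3 ± 3.92% and 85.8 ± 3.25% of the synapsins. Other families were shared out. Rab3c held 59.5 ± 12.3% in TA and 62.2 ± 3.52% in GS and Rab3a most of the rest, with Rab3a ahead in TA replicate 1. Erc1 held 60.4 ± 3.31% and 57.1 ± 10.8%, with Erc2 ahead in GS replicate 2.

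The SV2 family had the largest shift in share. With 3 libraries against 3, the exact permutation test used for shares cannot give a p below 0.1. It could therefore call no share different, whatever the shift, and no conclusion is drawn from its p-values. Sv2b held 48.2%, 47.8% and 63.3% in TA and 85.2%, 65.1% and 56.2% in GS, while Sv2c held 39.5%, 44.7% and 25.9% in TA and 10.03%, 26.8% and 32.6% in GS. The groups overlapped, the difference in the share of Sv2b was -15.7 percentage points, TA minus GS, and an exact permutation test gave p = 0.2 (two-sided). Without GS replicate 1 the difference was -7.55 points. For synaptobrevins, Vamp2 held 66.6%, 53.3% and 60.3% in TA and 32.5%, 48.0% and 58.1% in GS. Vamp1 led in GS replicate 1 alone, with 53.0% (exact permutation p = 0.2 for Vamp2). The glutamate transporters had no fixed leader. Slc17a7 held 56.2%, 44.03% and 31.6% in TA and 58.4%, 37.1% and 78.7% in GS, leading in 3 of 6 libraries (exact permutation p = 0.4).

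The share of Napb was the only one of the 16 leading shares that did not overlap between groups. Random labelling of 3 against 3 libraries separates a share with a probability of 0.1, so 1 of 16 is not above that rate. It was 76.3%, 74.7% and 76.6% in TA and 78.2%, 82.4% and 82.9% in GS, or 75.9 ± 1.02% and 81.1 ± 2.58% (SD, n = 3 each). The difference of -5.27 points had p = 0.1 in an exact two-sided permutation test, the smallest that 3 against 3 allows, and 0.64 after Benjamini-Hochberg adjustment over the 16 families. Napg held 11.9 ± 1.18% in TA and 8.31 ± 1.65% in GS, and Napa 12.2 ± 0.427% and 10.6 ± 3.55%.

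**Figure D5:**
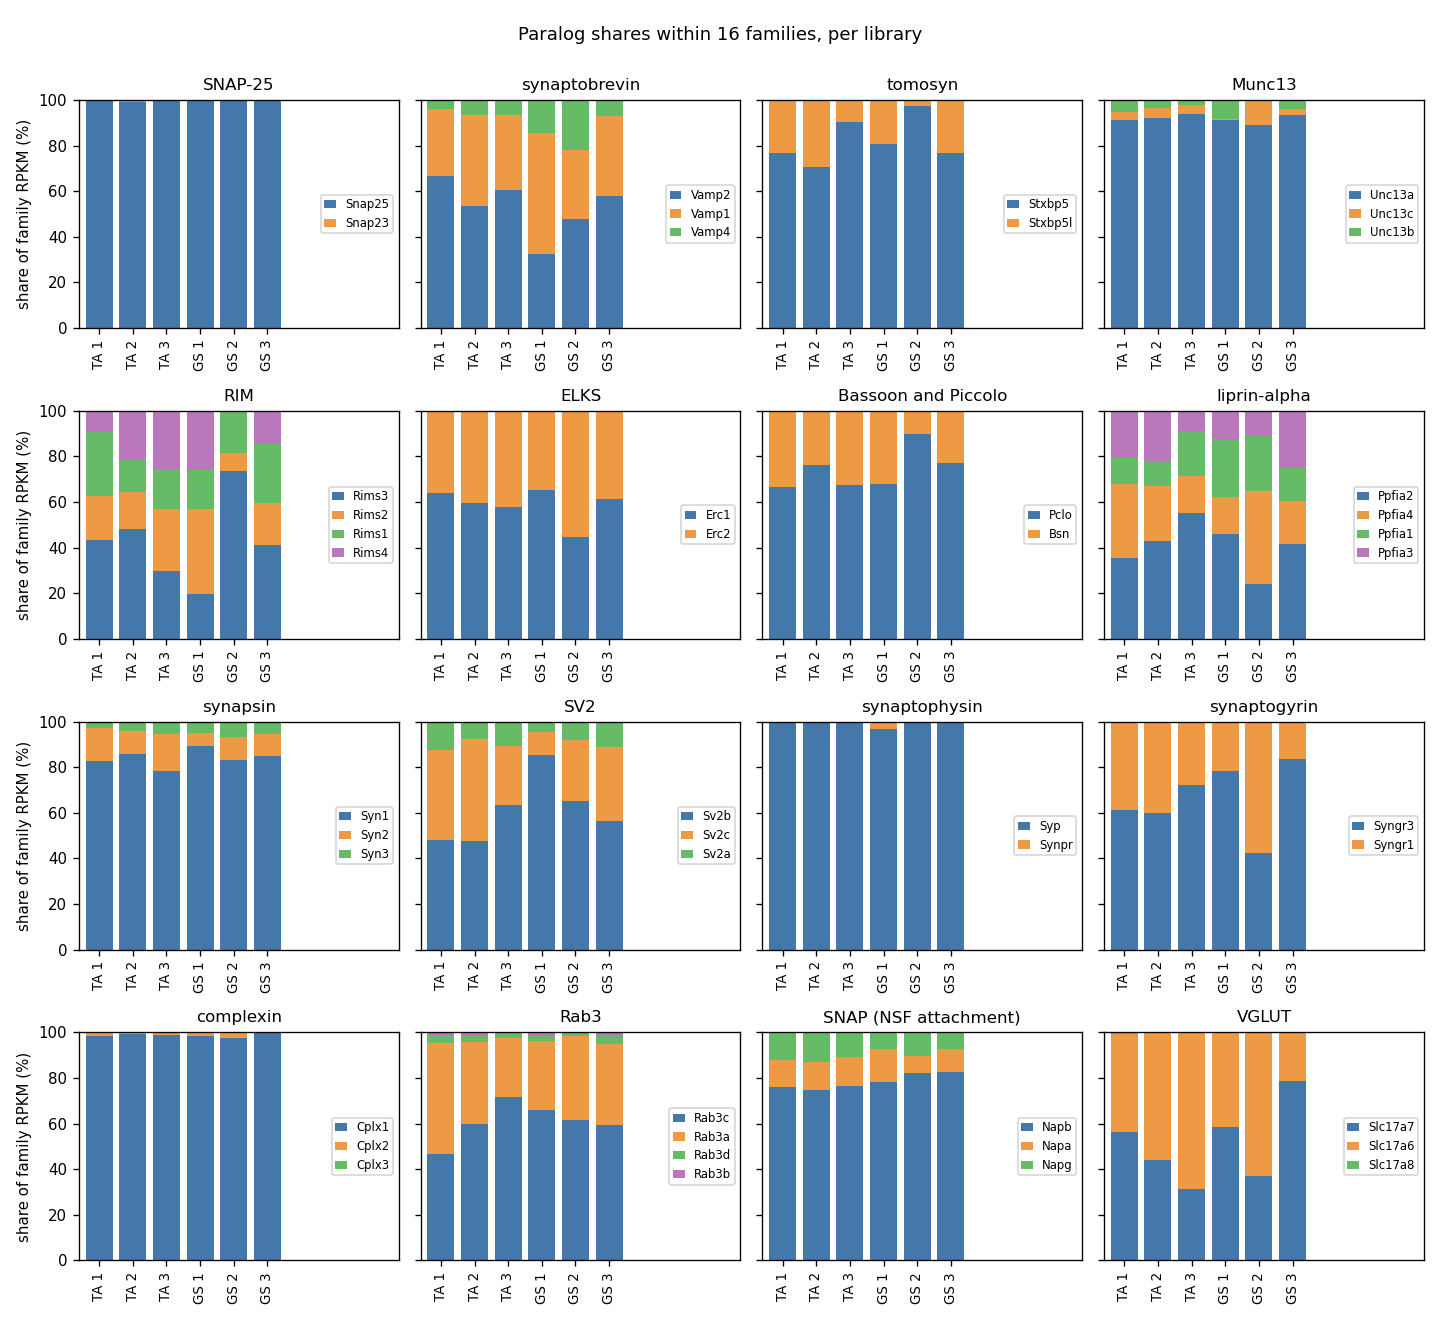
Share of the summed RPKM of each of 16 families (percent, vertical) held by each paralog in the 3 TA and 3 GS libraries (horizontal), 1 panel per family and 1 colour per paralog. Snap25, Syp and Cplx1 fill their panels, Slc17a6 and Slc17a7 alternate, and the blue bars of Napb are slightly taller in GS than in TA.

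Neighbouring pathways of the vesicle cycle likewise held no called gene. Of 26 endocytosis genes 21 were tested, 0 were called in either direction with limma, 1 was at an unadjusted p under 0.05, and 16 had a log2 fold change above 0, at a median of 0.25. Over all genes tested, 10.4% were at an unadjusted p under 0.05 and 66% above 0, at a median of 0.24, and the counts of the next lists stand beside the same shares. The gene at that level was Dnm1, the neuronal dynamin that pinches vesicles off the membrane, at 50.7 ± 12.9 RPKM in the TA pools and 25.3 ± 9.30 RPKM in the GS pools (SD, n = 3 each, limma adjusted p = 0.403). Next were the adaptor subunit Ap2a1 at 22.7 ± 10.3 and 11.1 ± 7.50 RPKM and Dnm3 at 6.09 ± 0.843 and 3.48 ± 1.19 RPKM. The highest of the list, Snap91, Ap2b1 and Clta, averaged 50.4, 52.6 and 45.4 RPKM in the TA pools and 46.1, 36.2 and 38.8 RPKM in the GS pools.

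All 16 genes of vesicle acidification, mostly subunits of the proton pump that powers transmitter loading, were tested. None was called, 1 was at an unadjusted p under 0.05, 11 were above 0, and the median log2 fold change was 0.08. Atp6v0a1 was at 34.7, 30.3 and 34.3 RPKM in the TA pools and 8.23, 24.8 and 20.0 RPKM in the GS pools, with no overlap and GS replicate 1 lowest (limma adjusted p = 0.445). Atp6v0e2 averaged 75.7 ± 10.9 RPKM in the TA pools and 51.8 ± 36.1 RPKM in the GS pools, and Atp6v0c 2.05 ± 0.372 and 1.17 ± 0.841 RPKM. The highest genes were Atp6v1g2 at 91.5 and 88.1 RPKM, Atp6ap1 at 76.6 and 79.9 RPKM, and Atp6v0d1 at 64.0 and 79.8 RPKM.

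Other SNAREs and their regulators gave 14 tested genes of 25 listed, with 0 called, 0 at an unadjusted p under 0.05 and 10 above 0, at a median of 0.23. Cadps, a priming factor for dense-core vesicles, was the most abundant at 90.2, 89.6 and 103 RPKM in the TA pools and 62.7, 82.0 and 79.7 RPKM in the GS pools, without overlap (limma adjusted p = 0.710). The general vesicle SNARE Vamp3 averaged 2.83 ± 2.66 RPKM in the TA pools and 5.59 ± 3.16 RPKM in the GS pools and Stx6 2.92 ± 1.56 and 1.75 ± 1.42 RPKM, while Stx12 and Snap47 averaged 59.2 and 44.2 RPKM in the TA pools and 60.2 and 52.7 RPKM in the GS pools.

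Of 29 other active zone and vesicle genes, 24 were tested, again with 0 called and 0 at an unadjusted p under 0.05, and 18 were above 0, at a median of 0.28. Madd, an exchange factor for Rab3, averaged 18.3 ± 5.55 RPKM in the TA pools and 10.4 ± 5.04 RPKM in the GS pools (limma adjusted p = 0.559). Scamp5 averaged 32.5 ± 14.4 and 19.0 ± 8.48 RPKM and Rimbp2, a RIM-binding protein, 2.73 ± 1.13 and 1.18 ± 1.43 RPKM. Sncg (gamma-synuclein), abundant in sensory neurons, was the highest at 926, 346 and 385 RPKM in the TA pools and from 182 to 517 RPKM in the GS pools. Scamp1 and Apba1 averaged 62.9 and 64.2 RPKM in the TA pools and 51.1 and 46.8 RPKM in the GS pools.

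Transporters of other transmitters were near the floor, apart from Slc18a2. This monoamine transporter averaged 5.06 ± 1.62 RPKM in the TA pools and 5.04 ± 0.712 RPKM in the GS pools (limma adjusted p = 0.988). Slc32a1, the vesicular GABA and glycine transporter, and Gad1 were listed at 0 in all libraries, Gad2 was at 0.0258 RPKM in TA replicate 2 only, and Slc6a5 at 0.454 RPKM in TA replicate 1 only. Slc18a1 averaged 0.798 ± 0.313 RPKM in the TA pools and 0.143 ± 0.117 RPKM in the GS pools, under the filter, and Slc18a3 was not analysed here.

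Promoters of the set were described from RefSeq windows of GRCm38.p6, using the 250 bases before each start. Windows were found for 41 of the 49 genes, 53 windows in all. Snap25 and Vamp2 were among the genes without one. Both strands were searched for exact letters, and the letters GGGCGG (the GC box) were in 58.5% of the 53 windows and in 32.7% of all 32851 windows. TATAAA was in 5.66% against 12.4%, CCAAT in 30.2% against 33.8%, and TGACGTCA in 1.89%, the single window of Syn1, against 1.55%. The median GC content was 61.2% against 52.4%. A match is a description of these letters and not of a bound factor. The windows of Syp (chrX:7638330-7638579, plus strand) and Rab3a (chr8:70754453-70754702, plus strand) are printed because both genes were highest in TA replicate 1 and lowest in GS replicate 1. That choice was made after their values were seen. Unc13a, Ppfia4 and Rab3d had the same extremes and are not printed, and Vamp2, with the same extremes, had no window. The trait is therefore not particular to Syp and Rab3a. A link between it and the promoter letters was not tested. In the printed windows, capitals mark GC boxes on either strand, 2 in each. A second window listed for Rab3a held none.
Syp: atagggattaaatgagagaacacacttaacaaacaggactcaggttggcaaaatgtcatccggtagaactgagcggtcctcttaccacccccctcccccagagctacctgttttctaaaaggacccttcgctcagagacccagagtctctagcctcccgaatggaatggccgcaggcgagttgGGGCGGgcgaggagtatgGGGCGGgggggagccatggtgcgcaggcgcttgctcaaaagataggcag
Rab3a: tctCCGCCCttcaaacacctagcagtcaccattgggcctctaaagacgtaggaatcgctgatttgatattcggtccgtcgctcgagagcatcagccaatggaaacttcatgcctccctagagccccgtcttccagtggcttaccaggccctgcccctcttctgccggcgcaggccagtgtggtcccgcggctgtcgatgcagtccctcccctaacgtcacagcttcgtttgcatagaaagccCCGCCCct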

How the data were processed

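RNA of 6 pools of proprioceptors was extracted, amplified and sequenced as paired ends, per the labels' protocols. Build mm9, Bowtie 0.12.9 and an unversioned DESeq are named in the submitters' processing notes. Which counter, annotation, strand setting and read length were used is not stated there or in the labels. The authors' table holds net reads and RPKM of 36814 genes, per the file headers. A value lies below 0 in 683 genes, so the read columns are not plain counts and no count test was run. The authors' deposited lists give a p-value and a ratio (fold) of GS over TA from 1 summed value per muscle.

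From RPKM, 1 row per symbol (the highest mean of 153 duplicated symbols), no value below 0 and a mean of at least 1 RPKM were required, leaving 10828 genes. The groups were compared on log2(RPKM + 1), a pseudocount of 1, by limma 3.58.1 (R 4.3.3), with group as the only term, a mean-variance trend and Benjamini-Hochberg adjustment. Log2 fold changes on this scale understate changes of low genes. Net reads summed over genes ran from 7038296 to 21125960 a library. The deposited RPKM values were not scaled by these sums, and the library total behind them was not identified here. Family shares were tested by exact permutation (scipy 1.17.1). Steps were tested on simulated data.

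Coordinates are those of the table in mm9. The genes, families and pathway lists were chosen with earlier results of these data known. All 49 genes are accounted for. The 14 with the smallest unadjusted p, the leading member of each family and the family whose leading share did not overlap are given in every library, and from each pathway list the 3 with the smallest p and the 3 with the highest mean are named. Other scalings, filters, pseudocounts, a replicate block and leaving out each library were tried as alternatives.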

Additional observations from a re-analysis of the deposited data

How the results depend on the processing

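The count of release machinery genes called at an adjusted p under 0.05 was 0 under all 13 alternatives to the fit, whereas the counts over all genes, 19 towards TA and 14 towards GS, moved. They were 7 and 6 with a pseudocount of 0.1, 0 and 0 without a filter on the mean (1251 and 250 at an unadjusted p under 0.05) and 9 and 8 with a mean of at least 5 RPKM. With median centring 11 were higher in TA and 17 in GS. Leaving out 1 library at a time gave 1 to 19 higher in TA and 1 to 10 higher in GS. TA replicates 1, 2 and 3 and GS replicate 1 each brought the TA count and the GS count to 3 or fewer when left out, and without GS replicate 3 the GS count was 7. The cause was not tested.

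A replicate block gave 8 and 8 over all genes and 0 for the set. Same-numbered TA and GS libraries did not deviate together from their group means (correlations across genes -0.07, -0.02 and -0.14), so the numbers were not taken as pairs. Of the 44 tested genes, 25 kept the direction of their log2 fold change in every alternative run. The smallest adjusted p of the set ran from 0.192 to 0.813.

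With 3 pools of 25 to 30 neurons a group, low genes such as Stx1a and Rab3b varied by more within a group than the groups differed. Abundant genes such as Snap25 and Syp did so as well.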
